A study of Mus musculus with 7 samples.

Results

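The amino acid transporters of 6 solute carrier (Slc) families were followed in the mouse uterus across the estrous cycle. The members were all rows of the RNA-seq table whose gene symbol names a numbered gene of the Slc1a, Slc3a, Slc7a, Slc36a, Slc38a or Slc43a family, which gave 42 of 31274 rows. The rule itself used gene names only, but the members were chosen with earlier results of these data known. The samples were uterine tissue of CD-1 mice, an outbred stock, aged 2 months and labelled as unexposed controls. The diestrus group (titles CoD) held 4 libraries and the estrus group (titles CoE) held 3. Diestrus is the progesterone-dominated phase of the ovarian cycle, and estrus follows the estradiol peak. The labels name no transgene, deletion or agent for either group. Whether the libraries stem from separate animals is not in the labels; the p-values therefore speak only to library-to-library spread, part of which may be technical.

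Amino acids cross membranes on carriers that differ in substrate and in driving force. Slc1a carriers use the sodium gradient to concentrate acidic or small neutral amino acids. Slc38a carriers take up glutamine and other small neutral amino acids with sodium. Most Slc7a light chains are exchangers that reach the cell surface only when bound to a heavy chain of the Slc3a family, while the cationic carriers of the Slc7a family work alone. Slc36a carriers move amino acids with protons, partly out of lysosomes. Slc43a1 and Slc43a2 carry large neutral amino acids by facilitated diffusion, but Slc43a3, although it matches the family name, is known as a nucleobase carrier. In the uterus, transport across the epithelium sets the amino acid content of the luminal fluid.

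Values are FPKM, which divide fragment numbers by transcript length and library total, so levels can be compared between genes. FPKM gives no read counts, and the spacing of the lowest values placed the libraries at 0.92 to 1.36 times the depth of estrus replicate 1. On the first principal component of all tested genes the estrus libraries lay between 47.0 and 59.9. Diestrus replicate 1, at -11.3, lay nearest to them, and the other diestrus libraries lay at -36.3 to -61.9. Summed markers of several cell types differed between the groups, and fewer cells of a type cannot be told apart from less RNA per cell in bulk tissue. The 12 epithelium markers summed to 1039 to 1449 FPKM in diestrus and 3449 to 3972 in estrus, and 9 were higher in estrus. The 8 endothelium markers summed to 224.6 to 505.5 and 128.2 to 165.3 FPKM, and 7 were lower. Of 10 stroma markers 5 were lower, with sums of 2956 to 5430 and 3200 to 4178 FPKM. Of 7 macrophage and dendritic cell markers 5 were lower, with sums of 459.0 to 1166 and 218.8 to 382.9 FPKM. Of 6 tested mast cell and eosinophil markers 4 were lower, with sums of 32.6 to 64.9 and 10.03 to 14.5 FPKM, and of 4 mesothelium markers 2 were lower, with sums of 86.5 to 173.4 and 41.5 to 64.2 FPKM. The 7 uterine gland markers summed to 123.8, 369.8, 17256 and 13467 FPKM in diestrus replicates 1 to 4 and to 38.2 to 105.0 in estrus. Without estrus replicate 2 no endothelium or macrophage marker and 1 each of the mast cell and eosinophil and the mesothelium markers passed the test, while 9 epithelium markers did when any single library was left out.

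A gene was tested where it reached 1 FPKM in at least 3 libraries. The test was limma on log2(FPKM + 1), with Benjamini-Hochberg adjustment over all 13920 tested genes and a threshold of 0.05. Of the 42 transporters, 27 were tested. Among them 3 rose at estrus, Slc7a1, Slc7a5 and Slc38a2, against 17.2% of all tested genes. Another 2 fell, Slc43a3 and Slc1a3, against 14.0% of all tested genes. Of these, Slc1a3 entered the test through the diestrus libraries alone, since no estrus library reached 1 FPKM. The shares among the transporters, 11.1% and 7.41%, lay below these background shares. When any 1 library was left out, the rises numbered 2 to 4 and the falls 0 to 4: none fell without estrus replicates 1, 2 or 3, 1 fell without diestrus replicates 3 or 4, and 4 fell without diestrus replicates 1 or 2. Estrus replicates 1 or 2, left out, gave 2 rises. The median log2 fold change was 0.01 over the 27 transporters and 0.05 over all tested genes. All estrus libraries lay above all diestrus libraries for 5 transporters, where 21.9% of all tested genes showed this. All estrus libraries lay below for another 5, where 18.7% of all tested genes did.

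**Figure D1:**
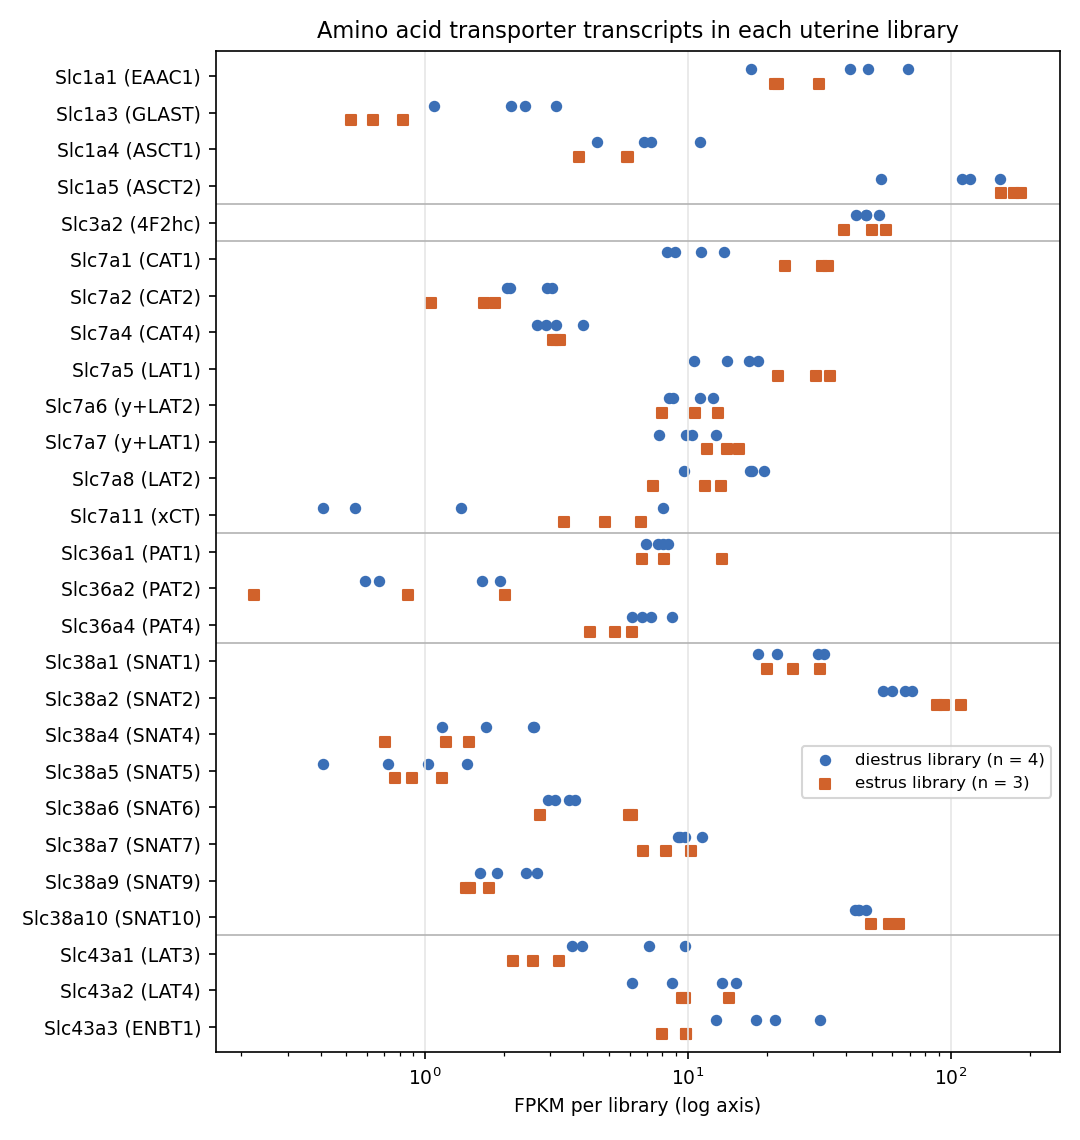
Each row is 1 of the 27 tested transporters, grouped by family, with its protein name in brackets; each point is the FPKM of 1 library on a log axis (circles diestrus, squares estrus). The members spread from 0.22 FPKM for Slc36a2 to 185.8 FPKM for Slc1a5, and the groups separate most clearly for Slc7a1.

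The pool of transporter transcripts was held by few genes. Slc1a5 gave 21.8% of the summed FPKM of the 42 members in diestrus and 28.9% in estrus, as means over libraries. Slc38a2 gave 13.1% and 16.5%, and Slc38a10, Slc3a2 and Slc1a1 followed in diestrus at 9.39%, 9.92% and 8.66%. The summed FPKM of all members was 473.0, 403.9, 575.8 and 505.7 for the diestrus libraries in replicate order, against 620.2, 586.4 and 568.9 for estrus. These ranges overlapped through diestrus replicate 3. The Slc7a sum did not overlap, with 65.3 to 76.6 FPKM in diestrus and 89.9 to 112.8 in estrus. The Slc38a sum did not overlap either, with 147.7 to 160.5 and 190.2 to 209.0 FPKM. The Slc43a sum overlapped, with 22.8 to 56.8 FPKM in diestrus and 19.9 to 27.4 in estrus. The FPKM sum over all rows was also higher in every estrus library, with 471379 to 583079 in diestrus and 677344 to 731457 in estrus. The family sums were not scaled to it, so their separation hangs on the scale and no family-level rise is drawn from it.

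**Figure D2:**
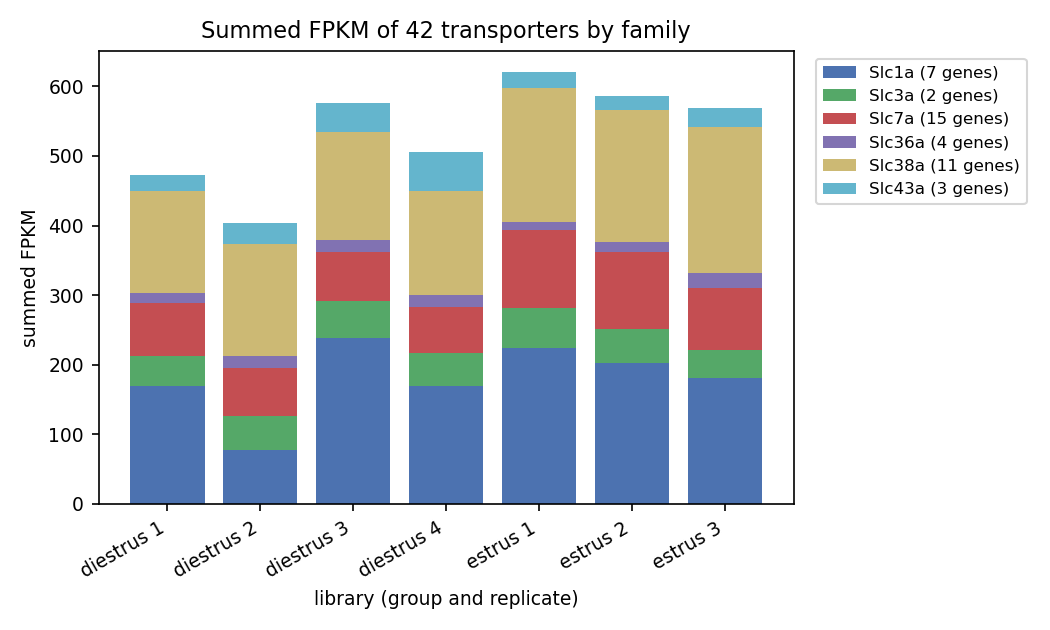
Each bar is 1 library and stacks the summed FPKM of the members by family, with all 42 members counted. The Slc1a and Slc38a families fill most of each bar, and diestrus replicate 2 has the lowest total (403.9 FPKM) through a low Slc1a part.

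Slc7a1 encodes CAT1, the widely expressed carrier for arginine, lysine and ornithine (GRCm38 chromosome 5, 148327410 to 148399904, minus strand, protein-coding). It stood at 13.7, 8.91, 11.2 and 8.30 FPKM in diestrus replicates 1 to 4 and at 32.3, 34.0 and 23.4 FPKM in estrus replicates 1 to 3. Every estrus library was above every diestrus library. The means were 10.5 ± 2.46 (SD, n = 4) and 29.9 ± 5.73 FPKM (SD, n = 3), 2.84 times as high in estrus. The log2 fold change was 1.43 (SE 0.20, limma adjusted p = 0.00347). Slc7a1 passed in all 17 alternative settings, with adjusted p values up to 0.0236. Epithelium markers moved with it, as given above, and their part in the rise was not tested. Slc7a5, Slc38a2 and the list genes reported below as risen, such as Bcat1 and Ass1, rose in the same libraries. The part of epithelium markers in those rises was not tested either. RefSeq promoter windows of GRCm38.p6, which run from 250 bases before to 50 bases after a start, were at hand for 31 of the 42 members. They were searched on both strands for 5 motifs. The first was the 8-letter core TGATGCAA of the element bound by ATF4 and C/EBP factors in amino acid shortage, found in 0.895% of all 32851 windows. The second was the antioxidant response element TGACNNNGC, found in 12.4%. The third was the full estrogen response element, GGTCA and TGACC with 3 bases between them, found in 0.07% of all windows and in no window of the members. It shares the letters TGAC with the antioxidant element. The GC box GGGCGG was found in 35.7% of all windows and in windows of 22 members, and the E-box CACGTG in 7.15% and in windows of 7 members. The antioxidant element was matched in windows of 5 members. A match is a description of letters, not a binding site. The stretch before the upstream Slc7a1 start (chr5:148399905-148400054, minus strand) is shown because this gene had the largest rise that passed, with the antioxidant element match at -11 to -3, which reads on the other strand, in capitals. Position -1 is the base before the start.
Slc7a1: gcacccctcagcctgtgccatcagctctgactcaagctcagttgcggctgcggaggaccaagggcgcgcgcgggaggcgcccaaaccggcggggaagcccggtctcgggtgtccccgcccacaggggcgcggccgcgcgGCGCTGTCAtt

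No other cationic carrier passed the test. Slc7a2, which encodes CAT2, stood at 2.11, 3.03, 2.91 and 2.05 FPKM in diestrus and at 1.05, 1.67 and 1.85 in estrus. All estrus libraries were lower, but the adjusted p was 0.075 (log2 fold change -0.48, SE 0.18). The ratio of Slc7a1 to Slc7a2 was 2.94 to 6.51 in the diestrus libraries and 12.6 to 30.7 in the estrus libraries. Its lack of overlap follows from the separation of both genes and adds nothing to it. Slc7a4, a CAT-like gene whose substrate is unsettled, stood at 3.17 ± 0.57 and 3.17 ± 0.10 FPKM, and its 95% interval for the log2 fold change ran from -0.33 to 0.34. Slc7a3, which encodes CAT3, was not tested and ranged from 0.0296 to 0.115 FPKM.

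**Figure D3:**
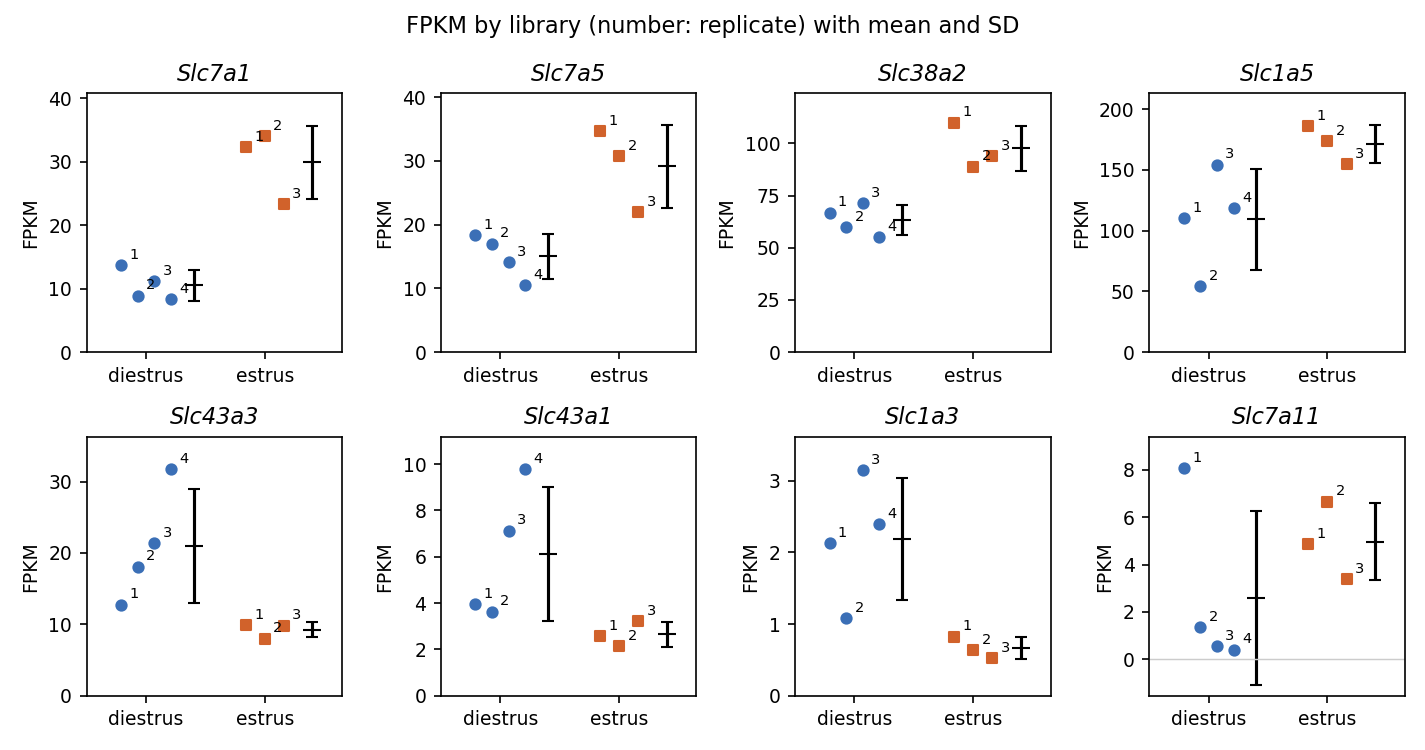
FPKM by library for 8 transporters, with the replicate number beside each point and the group mean and SD at its right; axes start at 0 except for Slc7a11, whose diestrus SD bar reaches below 0. Slc7a1, Slc7a5, Slc38a2 and Slc1a5 lie higher in every estrus library, Slc43a3, Slc43a1 and Slc1a3 lower, and for Slc7a11 diestrus replicate 1 (8.07 FPKM) stands above all other libraries.

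Slc7a5 encodes LAT1, the light chain that exchanges glutamine for leucine and other large neutral amino acids (chromosome 8, 121881150 to 121907694, minus strand). Its values were 18.4, 17.0, 14.1 and 10.5 FPKM in diestrus replicates 1 to 4 and 34.7, 30.7 and 22.0 FPKM in estrus replicates 1 to 3. The groups did not overlap, and diestrus replicate 1 came nearest to estrus. The means were 15.02 ± 3.48 and 29.1 ± 6.48 FPKM, a ratio of 1.94. The log2 fold change was 0.91 (SE 0.22, adjusted p = 0.0209), and the call was lost without estrus replicate 1 (0.0706) or estrus replicate 2 (0.0874). Slc3a2 encodes 4F2hc, or CD98, the heavy chain that LAT1 and 5 other light chains among the members need. Slc3a2 stood at 43.5, 47.5, 53.5 and 47.6 FPKM in diestrus and at 56.8, 49.98 and 39.4 in estrus. The ranges overlapped fully, with a log2 fold change of 0.01 and a 95% interval of -0.33 to 0.35. The ratio of Slc7a5 to Slc3a2 was 0.42, 0.36, 0.26 and 0.22 in diestrus and 0.61, 0.61 and 0.56 in estrus. The sum of the 6 light chains that pair with 4F2hc was 1.01 to 1.30 times Slc3a2 in diestrus and 1.34 to 1.55 times in estrus. Slc7a5 is part of both ratios, so their lack of overlap is no result separate from its rise. The other light chains were not summed without Slc7a5.

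The remaining 4F2hc partners that were tested did not pass. Slc7a8 encodes LAT2, a neutral exchanger of wider substrate range, and stood at 9.65, 17.3, 17.6 and 19.5 FPKM in diestrus and at 11.7, 7.37 and 13.4 in estrus. Diestrus replicate 1 lay within the estrus range, and without it Slc7a8 was lower in estrus with an adjusted p of 0.0361, against 0.18 with all libraries. Over all single libraries left out, the limma adjusted p of Slc7a8 ran from 0.0361 to 0.507, so no fall is drawn from this. The Slc7a5 level was below or near Slc7a8 in diestrus replicates 2 to 4, with ratios of 0.98, 0.80 and 0.54, but above it in diestrus replicate 1 (1.91) and in all estrus libraries (2.97, 4.17 and 1.64). Slc7a7 and Slc7a6 encode y+LAT1 and y+LAT2, which exchange cationic for neutral amino acids. Slc7a7 averaged 10.2 ± 2.05 FPKM in diestrus and 13.9 ± 1.90 in estrus, a log2 difference of 0.42 (SE 0.18, adjusted p = 0.103), and Slc7a6 at 10.2 ± 1.90 and 10.5 ± 2.53 FPKM. Slc7a10, which encodes the small neutral exchanger Asc-1, was not tested and reached at most 0.743 FPKM.

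Slc7a11 encodes xCT, which takes up cystine in exchange for glutamate and so feeds glutathione synthesis (chromosome 3, 49892526 to 50443614, minus strand). It was at 8.07 FPKM in diestrus replicate 1 but at 1.36, 0.54 and 0.41 in diestrus replicates 2 to 4, and at 4.85, 6.66 and 3.39 in estrus replicates 1 to 3. The highest value of all 7 libraries was thus a diestrus value, while the other diestrus libraries lay below every estrus library. The log2 fold change was 1.15 (SE 0.62, adjusted p = 0.185), and without diestrus replicate 1 it was 1.75 with an adjusted p of 0.00544. Over all single libraries left out, the limma adjusted p of Slc7a11 ran from 0.00544 to 0.4, so no rise is drawn from this. The promoter stretch of Slc7a11 (chr3:50443614-50443763, minus strand) is shown because it held a pair of TGATGCAA matches in opposite orientation, at -66 to -59 and -47 to -40 from the start, in capitals. Slc1a4 and Slc7a7 were the other members with such a match in a window.
Slc7a11: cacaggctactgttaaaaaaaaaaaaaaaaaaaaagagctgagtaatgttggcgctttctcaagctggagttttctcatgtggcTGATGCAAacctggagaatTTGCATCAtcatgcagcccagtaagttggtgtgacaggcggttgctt

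The rBAT branch was nearly silent. Slc3a1, the heavy chain rBAT, ranged from 0.0303 to 0.279 FPKM. Its partner Slc7a9, the cystine and cationic light chain mutated in cystinuria, was listed at 0 in all 3 estrus libraries and at up to 0.0427 FPKM in diestrus. Slc7a13 was likewise listed at 0 in estrus and at up to 0.0106 FPKM in diestrus, and Slc7a12 was listed at 0 in all 7 libraries. Slc7a14 and Slc7a15 reached at most 0.0149 and 0.0654 FPKM.

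**Figure D4:**
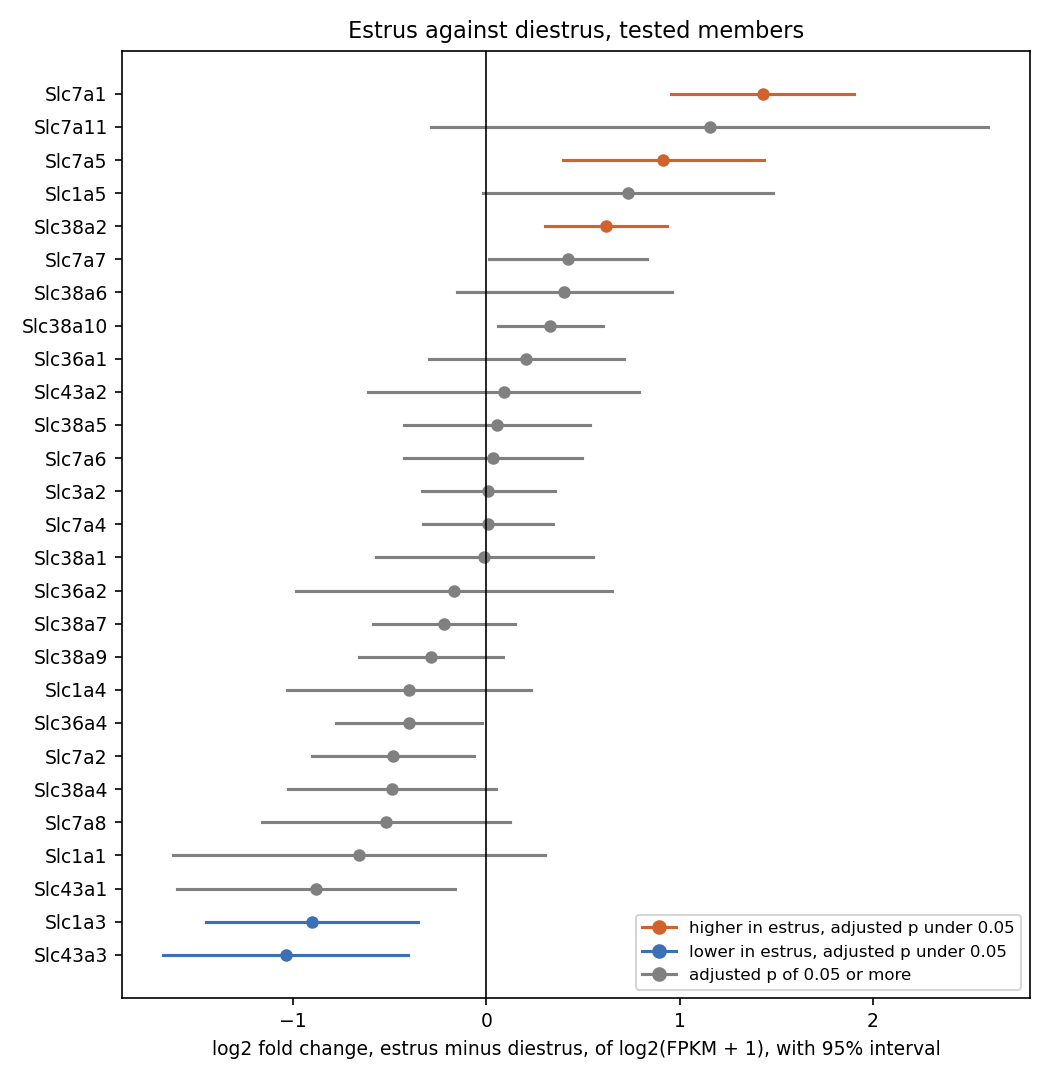
The x axis is the difference between group means of log2(FPKM + 1), estrus minus diestrus, for the 27 tested members, as points with 95% intervals from limma; colour marks an adjusted p under 0.05. Slc7a1, Slc7a5 and Slc38a2 lie to the right of 0 and Slc43a3 and Slc1a3 to the left, while Slc7a11 has the widest interval (-0.29 to 2.60).

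Slc38a2 encodes SNAT2, a sodium-coupled carrier of glutamine, alanine and other small neutral amino acids known to be induced by amino acid shortage (chromosome 15, 96687392 to 96699730, minus strand). It stood at 66.8, 59.8, 71.3 and 55.2 FPKM in diestrus replicates 1 to 4 and at 109.8, 88.9 and 94.0 FPKM in estrus replicates 1 to 3. The groups were well apart, with means of 63.3 ± 7.18 and 97.6 ± 10.9 FPKM. The ratio was 1.54 and the log2 fold change 0.62 (SE 0.14, adjusted p = 0.0147). The call was lost with quantile normalization (log2 0.37, adjusted p = 0.0854) and without estrus replicate 1 (0.0507). The stretch before its start (chr15:96699729-96699878, minus strand) is shown as that of the second member that rose and had a window, with its antioxidant element match at -27 to -19 in capitals.
Slc38a2: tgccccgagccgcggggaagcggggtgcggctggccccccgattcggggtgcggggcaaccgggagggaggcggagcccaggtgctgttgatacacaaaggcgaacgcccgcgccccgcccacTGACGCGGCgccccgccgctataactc

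Its neighbour Slc38a1, which lies 44.5 kb away with no protein-coding gene between them, encodes SNAT1 with a like substrate range. Slc38a1 stood at 18.5, 33.0, 21.8 and 31.3 FPKM in diestrus and at 20.1, 25.0 and 31.9 in estrus, with full overlap and a 95% interval of -0.57 to 0.55. Slc38a4, on the other side of Slc38a2, encodes SNAT4 and stood at 2.01 ± 0.71 and 1.12 ± 0.39 FPKM (adjusted p = 0.141). Slc38a10, a family member with a less settled substrate, stood at 45.0, 47.8, 44.3 and 43.1 FPKM in diestrus and at 49.7, 58.1 and 63.3 in estrus. Every estrus library was higher, but the adjusted p was 0.0654 (log2 0.33, SE 0.12). Slc38a6 stood at 3.33 ± 0.36 and 4.94 ± 1.91 FPKM, with estrus replicate 1 (2.74) below all diestrus libraries and the other two at 5.98 and 6.11. Without estrus replicate 1 it passed as higher (adjusted p = 0.0228). Over all single libraries left out, the limma adjusted p of Slc38a6 ran from 0.0228 to 0.541, so no rise is drawn from this.

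The lysosomal members did not pass. Slc38a7, a lysosomal exporter of glutamine and asparagine, averaged 9.90 ± 1.01 FPKM in the diestrus libraries against 8.45 ± 1.79 for estrus. Slc38a9, the arginine sensor that signals to mTORC1 at the lysosome, stood at 2.15 ± 0.48 and 1.56 ± 0.17 FPKM (log2 -0.29, adjusted p = 0.198). Slc36a1 encodes the proton-coupled carrier PAT1 and stood at 6.91 to 8.38 FPKM in diestrus and at 6.72, 8.10 and 13.5 in estrus, with the estrus mean of 9.45 raised by replicate 3. Slc36a4, which encodes PAT4, stood at 6.12, 8.70, 6.68 and 7.26 FPKM in diestrus and at 4.26, 5.26 and 6.11 in estrus. The groups of Slc36a4 touched without overlapping, and the adjusted p was 0.0949. Slc36a2 varied within both groups, from 0.59 to 1.93 and from 0.22 to 2.01 FPKM. Slc36a3 reached at most 0.014 FPKM. Of the remaining Slc38a members, Slc38a5, a glutamine and histidine carrier, lay between 0.41 and 1.44 FPKM in all libraries, and Slc38a3, Slc38a8 and Slc38a11 reached at most 0.144, 0.0435 and 0.146 FPKM.

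Slc1a5 encodes ASCT2, the sodium-dependent exchanger that brings in glutamine, and had the highest mean of the members in both groups (chromosome 7, 16781340 to 16798274, plus strand). It stood at 110.2, 54.4, 154.3 and 118.7 FPKM in diestrus replicates 1 to 4 and at 185.8, 173.5 and 155.0 in estrus replicates 1 to 3. The groups touched at diestrus replicate 3 and estrus replicate 3 without overlapping. In diestrus replicate 2 Slc38a2, at 59.8 FPKM, was above Slc1a5. The log2 fold change of 0.73 (SE 0.32) did not pass, with an adjusted p of 0.118, and its 95% interval ran from -0.02 to 1.48. Slc1a4, which encodes the related small neutral carrier ASCT1, stood at 7.21, 4.51, 11.2 and 6.82 FPKM in diestrus and at 5.89, 5.92 and 3.85 in estrus, with a log2 fold change of -0.40 (adjusted p = 0.284). Within diestrus, Slc1a4, Slc1a5 and Slc1a1 were each lowest in replicate 2 and highest in replicate 3. Slc1a5 stood at 12.1 to 17.4 times Slc1a4 in the diestrus libraries and at 29.3 to 40.2 times in the estrus libraries, with no overlap. Neither gene passed, and how many gene pairs separate in this way was not determined. Among other ratios taken, Slc38a2 to Slc38a1 and Slc7a7 to Slc7a6 overlapped, and Slc1a5 to Slc1a1 did not.

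Of the acidic carriers, Slc1a3 fell and Slc1a1 did not pass. Slc1a1 encodes EAAC1, a glutamate, aspartate and cysteine carrier and was the most abundant of them. It stood at 48.2, 17.4, 68.7 and 41.3 FPKM in diestrus and at 31.6, 21.5 and 22.0 in estrus. Diestrus replicate 2 lay below every estrus library, and without it Slc1a1 was lower in estrus with an adjusted p of 0.0249, against 0.25 with all libraries. Over all single libraries left out, the limma adjusted p of Slc1a1 ran from 0.0249 to 0.463, so no fall is drawn from this. Slc1a3 encodes the glutamate carrier GLAST (chromosome 15, 8634124 to 8710764, minus strand). It stood at 2.13, 1.08, 3.15 and 2.39 FPKM in diestrus replicates 1 to 4 and at 0.83, 0.63 and 0.52 in estrus. The groups did not overlap. The log2 fold change was -0.90 (SE 0.24, adjusted p = 0.026). Slc1a3 reached 1 FPKM only in the diestrus libraries and so entered the test through them alone. Its call was lost without diestrus replicate 4 (0.0653), without estrus replicates 1, 2 or 3 (0.0567, 0.0954 and 0.0689) and with quantile normalization (0.0644). Endothelium, macrophage, mast cell and eosinophil, and mesothelium markers were lower in estrus too, as given above, and their part was not tested. The other acidic carriers of the family, Slc1a2, Slc1a6 and Slc1a7, reached at most 0.158, 0.697 and 0.0401 FPKM. Slc1a2 and Slc1a6 lay lower in all estrus libraries, without a test and without the share of all untested rows to set beside it.

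On chromosome 2, Slc43a3 fell, and its neighbour Slc43a1 lay lower without passing. Slc43a3, the nucleobase carrier (84936579 to 84958509, plus strand), stood at 12.7, 18.1, 21.4 and 31.8 FPKM in diestrus replicates 1 to 4 and at 9.87, 8.01 and 9.82 in estrus. The estrus libraries were alike while the diestrus libraries spread widely, without overlap. The log2 fold change was -1.04 (SE 0.27, adjusted p = 0.0261), and the call was lost without diestrus replicate 3 (0.0585) or estrus replicates 1, 2 or 3 (0.063, 0.105 and 0.0541). Slc43a1 encodes LAT3 and lies 73.0 kb from Slc43a3, with 1 protein-coding gene between them. It stood at 3.95, 3.62, 7.13 and 9.77 FPKM in diestrus and at 2.58, 2.15 and 3.23 in estrus. All estrus libraries were lower, with an adjusted p of 0.0631 (log2 -0.88, SE 0.31), which was 0.0424 without diestrus replicate 1 and 0.0446 without diestrus replicate 2. Over all single libraries left out, the limma adjusted p of Slc43a1 ran from 0.0424 to 0.195. Both genes were highest in diestrus replicate 4. The summed markers of endothelium (505.5 FPKM), stroma (5430), smooth muscle (6940), mast cells and eosinophils (64.9), mesothelium (173.4) and red blood cells (1139) were also highest in that library. Between the groups, endothelium, macrophage, mast cell and eosinophil, and mesothelium markers were lower in estrus, as given above. The part of all these markers was not tested. Slc43a2, which encodes LAT4, stood at 6.13, 8.72, 13.5 and 15.2 FPKM in diestrus and at 9.49, 9.77 and 14.4 in estrus, with full overlap.

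The 15 transporters left out of the test reached at most 0.743 FPKM in any library, and 1 of them was listed at 0 throughout. Among them Slc7a3 lay higher in all estrus libraries, and Slc1a2, Slc1a6 and Slc38a3 lay lower. These low values were not tested. How many of all untested rows separate in this way was not determined, so no result is drawn from it.

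Genes that use or sense the carried amino acids were read from 7 lists of non-members, beside the 17.2% and 14.0% of all tested genes that rose and fell. The lists were chosen with earlier results of these data known, so their shares are descriptive only. In arginine and polyamine metabolism, the fate of CAT1 substrates, 4 of 18 tested genes rose and 6 fell, with a median log2 fold change of 0.30. Ass1, the argininosuccinate synthase of arginine resynthesis, was low in diestrus, between 0.619 and 0.904 FPKM, and reached 7.99 to 10.7 FPKM in estrus, a log2 difference of 2.64 (SE 0.15, adjusted p = 0.000312). It entered the test through the estrus libraries alone, since no diestrus library reached 1 FPKM. Asl, of the same resynthesis and named after its values were seen, went the other way. It stood at 20.2 to 71.3 FPKM in diestrus and at 15.9 to 18.9 in estrus (log2 -1.26, SE 0.40, limma adjusted p = 0.048). The polyamine catabolic enzymes Sat1 and Smox rose by 1.61 and 0.84, and Nos3, the endothelial nitric oxide synthase, fell by 0.93, all on the log2(FPKM + 1) scale used for each gene; the endothelium markers fell with Nos3, and their part was not tested. Arg1, an arginase named after its values were seen, stood at 3.95 to 21.5 FPKM in diestrus and at 15.02, 254.7 and 753.5 in estrus, overlapping and with an adjusted p of 0.0363 that rose to 0.129 without estrus replicate 2. The same call was lost without diestrus replicates 1, 2 or 4 (0.06, 0.0753 and 0.0846), without estrus replicate 3 (0.0874) and with no filter on low values (0.0661). Arg2, the mitochondrial arginase, also named after its values were seen, stood between 17.1 and 35.0 FPKM in diestrus and between 5.04 and 9.66 in estrus and fell by 1.55 (SE 0.29, adjusted p = 0.00787), the direction opposite to Arg1. Its call held in all 17 alternatives. When any 1 library was left out, between 2 and 5 of these genes rose and between 3 and 6 fell, with the fewest, 2 and 3, without estrus replicate 2.

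In cystine, glutathione and ferroptosis defence, the pathway fed by xCT, 9 of 22 tested genes rose and 3 fell, with a median of 0.27. Gss, glutathione synthetase, averaged 14.4 ± 0.64 FPKM in diestrus against 29.7 ± 3.54 in estrus, a log2 difference of 0.99 (SE 0.12, adjusted p = 0.002). Chac2, which degrades glutathione, rose by 2.13, the thioredoxin reductase Txnrd1 by 1.48 and the gamma-glutamyl transferase Ggt1 by 1.13. The 3 that fell, named after their values were seen, were Cd44, Gpx4 and Cth, by 0.78, 0.58 and 0.76. With single libraries left out, 6 to 9 genes rose and 1 to 4 fell, with 6 and 1 without estrus replicate 2 and also without diestrus replicate 4. In the list of amino acid response (ATF4) targets, 2 of 28 rose and 4 fell, with a median of -0.13. Stc2, a secreted glycoprotein, rose by 1.43 and the mTORC1 inhibitor Ddit4 by 2.02, while Ddit3, the stress factor CHOP, fell by 1.28. Gpt2, an alanine aminotransferase, fell by 1.41, and its call was lost without estrus replicate 2 (adjusted p = 0.0572). When any 1 library was left out, rises numbered 2 to 3 and falls 1 to 5, with 1 fall without estrus replicate 2.

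In mTORC1 and lysosomal sensing, 3 of 31 rose and 3 fell, with a median of -0.01. The Rag GTPases Rragd and Rragb, which bind mTORC1 at the lysosome, fell by 1.60 and 1.03. Rragd stood between 2.86 and 5.75 FPKM in diestrus and between 0.551 and 0.632 in estrus, and Rragb between 2.02 and 3.32 and between 0.695 and 0.793. Both entered the test through the diestrus libraries alone, since no estrus library reached 1 FPKM. Rheb, the GTPase that activates mTORC1, rose by 0.63, and the leucine-responsive family member Sesn1 fell by 1.72. Without estrus replicate 2 Rheb and Sesn1 lost their calls (adjusted p = 0.0504 and 0.0795), none of the list rose and 2 fell, and Sesn1 was at 0.0672 without estrus replicate 1. In glutamine and glutamate metabolism, 1 of 17 rose and 4 fell, with a median of -0.06. Gfpt1, which uses glutamine to make hexosamines, rose by 1.19, and glutamine synthetase Glul and proline dehydrogenase Prodh fell by 0.75 and 1.03, the latter with overlapping groups. Gpt2 belongs to this list too. Without estrus replicate 2 none of this list passed, with Gfpt1, Glul and Prodh at adjusted p values of 0.0708, 0.086 and 0.11. Gfpt1 was also lost without estrus replicate 3 (0.054), Glul without diestrus replicates 3 or 4 (0.07 and 0.0769) or estrus replicates 1 or 3 (0.086 and 0.0792), and Prodh without diestrus replicates 1, 2 or 3 (0.0652, 0.0794 and 0.0696) or estrus replicate 3 (0.0987) or with no filter (0.0676).

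In branched-chain amino acid breakdown, the fate of LAT1 substrates, 2 of 20 rose and 1 fell, with a median of -0.04. Bcat1, the cytosolic transaminase of leucine, isoleucine and valine, stood at 214.5, 107.4, 87.9 and 62.3 FPKM in diestrus and at 609.5, 577.7 and 535.3 in estrus. The groups were far apart (log2 2.42, SE 0.37, adjusted p = 0.00445), and the call held in all 17 alternatives. Pcca rose by 0.55 and Mccc2 fell by 0.50, but both calls were lost in 8 alternatives, among them without estrus replicate 2 (adjusted p = 0.122 and 0.121). With single libraries left out, 1 to 6 genes of this list rose, with 6 without diestrus replicate 1, and 0 to 2 fell. Among 17 tested amino acid and peptide transporters of other families, 1 rose and 1 fell, with a median of -0.05. Slc25a13, a mitochondrial aspartate and glutamate carrier, rose by 1.17 and was lost without estrus replicate 2 (adjusted p = 0.0839). Slc6a15, a neutral amino acid carrier, was at 1.39 to 5.31 FPKM in diestrus and at 0.287 to 0.490 in estrus, and so entered the test through diestrus alone. It fell by 1.23, and its call was lost without diestrus replicate 4 (0.0503) or estrus replicates 1, 2 or 3 (0.0749, 0.105 and 0.0585), with a pseudocount of 5 (0.0651) and with quantile normalization (0.05003).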

How the data were processed

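RNA sequencing had measured uterine tissue in 4 diestrus and 3 estrus libraries. The values were FPKM, 1 column per library, deposited by the authors. Per the submitters' processing notes, TopHat2 2.0.4 and mm10 were named, with no role stated; which program and gene models gave the FPKM is not given in the sources used here. Each column carried 1 sample's description. Because FPKM divide by all mapped reads, a few abundant transcripts can lower all others. The 10 highest rows took 33.7% to 38.2% of the FPKM sum in estrus. In diestrus they took 34.2% in replicate 1 and 12.1% to 18.7% in replicates 2 to 4. Genes that reached 1 FPKM in 3 or more libraries were tested with limma 3.58.1 (R 4.3.3) on log2(FPKM + 1), in a 2-group design with an intensity trend, two-sided, adjusted by Benjamini-Hochberg; this scale understates changes of low genes. The code was tested on simulated data. Every tested member was named, and of each list up to 4 genes with the smallest adjusted p, besides genes marked as named after their values were seen. Members and lists were chosen with earlier results of these data known. Gene positions came from GENCODE M21 (GRCm38, the assembly of mm10), promoters from RefSeq. Figures used matplotlib 3.10.9 in Python 3.11.15. The alternatives were other pseudocounts, filters, scalings, moderation, weights per library, the replicate number as a block, and each library omitted in turn; for lists they were added after the data were seen.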

Additional observations from a re-analysis of the deposited data

Results flagged for a closer look

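The Slc7a11 value of diestrus replicate 1, 8.07 FPKM, lay far from the other 3 diestrus libraries: the gap to the next value was 0.875 of the group's range, above Dixon's critical value for 4 samples. It was the only such case among the diestrus groups of the 27 tested members, and chance marks about 1 in 20 groups. The critical value was that for 4 libraries, so the estrus groups were not covered.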

How the results depend on the processing

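Over the 27 tested members and 17 alternatives, 383 of 443 values kept direction and side of the threshold, 16 lost a call and 18 gained one. Other pseudocounts, no filter, no trend and robust moderation changed no member's call. With a mean of at least 5 FPKM, 1181 of all genes and 1 member fell. Quantile normalization left 1 member that fell. Library weights, whose estimation stopped before convergence, gave 4944 rises and 4423 falls over all genes, 8 and 9 among members. When any 1 library was omitted, 854 to 2866 of all genes rose and 579 to 2445 fell, and 0 to 4 members fell.

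With the replicate number of the titles as a block, 1299 genes rose and 982 fell, and 0 members fell. Under this block Slc38a2, Slc43a3 and Slc1a3 were at adjusted p values of 0.0595, 0.0504 and 0.0767. Of the named list genes followed through the alternatives, Glul, Pcca and Mccc2 lost their calls under it (0.107, 0.0994 and 0.123). Asl, Cd44, Gpx4 and Cth were not followed gene by gene. After each gene's group mean of log2(FPKM + 1) was subtracted, same-numbered libraries correlated at 0.198, 0.0243 and 0.169 for numbers 1 to 3. Of the estrus libraries only replicate 1 correlated best with the diestrus library of its own number. So few libraries cannot decide whether same-numbered samples share more than a number, and this was not tested.

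Direction reversed in 26 values of 8 members, none of which had passed, with adjusted p of at least 0.207. With median-ratio scaling the log2 fold changes were -0.035 for Slc3a2, -0.027 for Slc7a4 and -0.0071 for Slc7a6. With quantile normalization they were -0.20 for Slc3a2 and -0.019 for Slc7a6. With the replicate block they were -0.051 for Slc7a4, -0.027 for Slc7a6 and 0.085 for Slc38a1. With library weights Slc43a2 was at -0.27. Leaving out single libraries gave -0.11 to 0.15 for Slc3a2, -0.051 to 0.096 for Slc7a4, -0.12 to 0.20 for Slc7a6 and -0.058 to 0.40 for Slc36a1. It gave -0.31 to 0.15 for Slc36a2, -0.17 to 0.15 for Slc38a1, -0.081 to 0.12 for Slc38a5 and -0.13 to 0.26 for Slc43a2. The causes were not tested. FPKM carry no read counts, so counting error of low genes is unknown.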
